A study of Homo sapiens with 12 samples.

Results

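The RNA of 9 genes of the amino acid stress response was followed in triple-negative breast cancer cells. They are ATF4, the transcription factor at the centre of this response, and 8 genes that it is known to drive: DDIT3, TRIB3, ASNS, PSAT1, PHGDH, CHAC1, SESN2 and STC2. They were taken by gene name from a table of 32152 genes, and all 9 were among the 13737 protein-coding genes that passed the filter on low values. These genes, and the gene lists used further below, were chosen with earlier results of these data known. Their counts beside the shares of all tested genes are therefore descriptions. MDA-MB-231 and Hs-578T, both established triple-negative breast cancer cell lines, were each sequenced as parental controls, as cells labelled ERK5-ko and as cells labelled MEK5DD, with 2 libraries in each of these 6 groups. ERK5-ko cells were made with CRISPR/Cas9 and several guides against MAPK7, the gene of the kinase ERK5, and grown from single sorted cells, so that each line is a clone. A single clone survived in MDA-MB-231, and which of the Hs-578T clones was sequenced is not stated. MEK5DD is a mutant MEK5 that is always active, MEK5 being the kinase upstream of ERK5, and the sources used here do not give its vector or promoter. All cells were grown in serum-containing medium supplemented with essential and non-essential amino acids, pyruvate and insulin, without a starvation arm, and RNA was taken at 70% confluence. The passage labels were 29 and 30 in MDA-MB-231 parental controls, 7 and 8 in ERK5-ko and 10 and 11 in MEK5DD. In Hs-578T they were 83 and 84 in parental controls, and 8 and 9 in both ERK5-ko and MEK5DD. By the paper's methods, the ERK5-ko lines were made from MDA-MB-231 cells of a later passage than the sequenced parental libraries. The Hs-578T cells used were of an earlier passage than the sequenced parental ones. The ERK5-ko labels are lower than those starting passages, so they cannot be read on the same scale as the parental labels. No starting passage is given for MEK5DD. Against parental controls, genotype and passage cannot be told apart. Replicates are consecutive passages, so the p-values measure the spread between these samples, which may be technical.

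When amino acids run short, uncharged tRNA activates the kinase GCN2, and when proteins misfold in the endoplasmic reticulum the kinase PERK is activated. Both phosphorylate eIF2α, which slows translation in general and at the same time favours translation of the ATF4 mRNA, so that ATF4 protein can change without a change of its RNA. ATF4 pairs with C/EBP proteins on composite elements in its targets and raises amino acid synthesis and uptake. It also raises CHOP (the product of DDIT3) and TRIB3, which are associated with cell death and with negative feedback on ATF4. Only RNA was measured here, and neither eIF2α phosphorylation nor ATF4 protein was.

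The core of the composite element bound by ATF4 and C/EBP factors, TGATGNAA, was searched on both strands of the RefSeq promoters of GRCh38.p14, from 250 bases before to 50 bases after each gene's start. All 9 genes had an entry, with 14 promoters in all, and 2 of the 14, 1 of ASNS and the promoter of CHAC1, held these letters. The other ASNS promoter did not. Among all 35116 promoters of the same length, 1270 (3.62%) held them. The 250 bases before the start of both genes are printed because they carry these matches, 5′ to 3′ on the strand of the gene, with the match in capitals. The ASNS stretch is chr7:97872409-97872658 on the minus strand and the CHAC1 stretch is chr15:40953221-40953470 on the plus strand.
ASNS: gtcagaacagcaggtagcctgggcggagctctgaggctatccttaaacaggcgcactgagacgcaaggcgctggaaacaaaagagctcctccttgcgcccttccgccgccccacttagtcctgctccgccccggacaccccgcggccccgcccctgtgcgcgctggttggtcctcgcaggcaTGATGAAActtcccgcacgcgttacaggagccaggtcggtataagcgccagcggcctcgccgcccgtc
CHAC1: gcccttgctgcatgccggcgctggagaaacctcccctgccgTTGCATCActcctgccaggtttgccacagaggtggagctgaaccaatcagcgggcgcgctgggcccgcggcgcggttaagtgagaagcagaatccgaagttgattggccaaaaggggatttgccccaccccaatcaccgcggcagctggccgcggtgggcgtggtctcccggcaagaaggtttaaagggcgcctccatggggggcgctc
The match in ASNS, tgatgaaa, lay 68 to 61 bases before the start. The match in CHAC1 lay 209 to 202 bases before the start and was on the opposite strand, so it reads TTGCATCA here. Starts are those of RefSeq, and the gene spans of the deposited table, given below, begin 134 bases (ASNS) and 509 bases (CHAC1) upstream of them, so that both matches lie inside these spans. The letters were not in the windows of the other 7 genes, which says nothing of elements elsewhere, such as those in introns.

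Before the 9 genes, the labels were checked. MAPK7 RNA was not lower in ERK5-ko: its RPKM (reads scaled to gene length and to the reads of the library) was 13.3 and 14.3 in MDA-MB-231 parental controls against 16.3 and 17.8 in ERK5-ko, and 14.0 and 16 against 17.8 and 18.1 in Hs-578T. MAPK7 overlaps B9D1 by 462 bases and MFAP4 by 103 on the opposite strand. This RNA level therefore gives no check of the label. ERK5 protein, which the study examined by Western blot, is not part of these data, so the groups are called libraries labelled ERK5-ko. MAP2K5, the gene of MEK5, had an RPKM of 188 and 184 in MDA-MB-231 libraries labelled MEK5DD against 12.9 and 13.6 in parental controls. In Hs-578T it had 21.3 and 23.8 against 14.6 and 16.9, a fitted fold of 1.42 next to 13.6 in MDA-MB-231. ESR1 stayed at or under 0.120 and PGR at or under 0.348 RPKM in all 12 libraries, but ERBB2, the gene of the receptor HER2, ran from 27.8 to 56.8, so its RNA was not absent. VIM ran from 1598 to 4067 and CD44 from 819 to 1695. Of the markers of other cell types, PTPRC (leukocytes) stayed at or under 0.396 and CDH5 (endothelium) at or under 0.0259. PECAM1 (endothelium) reached 0.194 to 0.841 in MDA-MB-231 and 2.81 to 6.48 in Hs-578T, and EPCAM (epithelium) 7.08 to 25.7 and at most 0.0862. The libraries held 20248162 to 27791195 reads, as recovered from the RPKM values.

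Each gene was tested with limma on log2(RPKM + 0.5) over all 12 libraries with Benjamini-Hochberg adjustment over the 13737 genes, and a gene passed at an adjusted p under 0.05. A fold change on this scale understates changes of genes near 0.5 RPKM. With 2 libraries against 2, the smallest p of an exact two-sided permutation test is 0.333 for any 1 gene, and the fit pools the spread of all groups. In bulk RNA, fewer cells expressing a gene and less RNA per cell cannot be told apart.

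The parental lines differed in the level of every one of the 9 genes. Of the 9, 8 were lower in MDA-MB-231 than in Hs-578T and DDIT3 was higher, while 77.4% of all tested genes passed in this comparison (46.0% with the higher level in MDA-MB-231, 31.3% with the lower). Median-ratio scaling moved the median log2 difference over all tested genes from 0.19 to -0.02 and the share of calls that were higher from 59.5% to 48.7%. The median over the 9 genes was -1.16. The parental libraries of the lines did not overlap in any of the 9 genes, nor in 88.9% of all tested genes. With the fold threshold of the study (above 1.5 or below 0.5) added, 6 of the 9 passed, beside 34.1% of tested genes as higher and 15.4% as lower.

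ATF4 (ENSG00000128272.14, GRCh38 chromosome 22, 39519695 to 39522685) had an RPKM of 86.4 and 87.9 in the MDA-MB-231 parental libraries and 224 and 215 in those of Hs-578T. The Hs-578T level was 2.52 times higher, a log2 difference (MDA-MB-231 minus Hs-578T) of -1.33 (SE 0.0787, adjusted p = 2.11e-08, limma). ATF4 was the most abundant of the 9 RNAs per length in every MDA-MB-231 group and the third in every Hs-578T group.

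STC2 (ENSG00000113739.10, chromosome 5, 173314713 to 173329503), which encodes the secreted glycoprotein stanniocalcin 2, had the widest gap. It had 0.454 and 0.594 RPKM, from 17 and 25 reads, in MDA-MB-231 parental libraries, and 639 and 693 RPKM, from 22130 and 21763 reads, in Hs-578T. The ratio of the means was 1272, and the log2 difference was -9.35 (SE 0.135, adjusted p = 3.06e-13, limma). Over its 6 MDA-MB-231 libraries STC2 ranged from 0.264 to 0.594 RPKM, so no change of it within that line could be resolved beyond 10 to 25 reads.

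PHGDH (ENSG00000092621.11, chromosome 1, 119659798 to 119744215) encodes the enzyme of the first step of serine synthesis from glucose. It had 5.13 and 4.71 RPKM in MDA-MB-231 parental libraries and 397 and 352 in Hs-578T, 76.2 times more (log2 difference -6.11, SE 0.124, adjusted p = 1.99e-12, limma). PSAT1 (ENSG00000135069.13, chromosome 9, 78297143 to 78330093), the aminotransferase of the next step, differed by far less. It had 68.8 and 69.2 RPKM against 132 and 107, a ratio of 1.73 (log2 difference -0.78, adjusted p = 7.20e-05). These consecutive enzymes thus stood at 375 and 120 RPKM in Hs-578T, and at 4.92 and 69.0 in MDA-MB-231, where their order was the opposite.

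Of the others, CHAC1 (ENSG00000128965.11, chromosome 15, 40952962 to 40956519), which degrades glutathione, had 7.36 and 8.39 against 38.7 and 30.4 RPKM (log2 difference -2.06, adjusted p = 1.03e-07). SESN2 (ENSG00000130766.4, chromosome 1, 28259527 to 28282491), a leucine sensor that restrains mTORC1, had 5.45 and 6.12 against 14.4 and 12.8 (-1.16, adjusted p = 9.85e-05). ASNS (ENSG00000070669.16, chromosome 7, 97852118 to 97872542), asparagine synthetase, had 63.4 and 65.2 against 117 and 107 (-0.79, adjusted p = 2.88e-05). TRIB3 (ENSG00000101255.10, chromosome 20, 362835 to 397559), a pseudokinase that represses ATF4 and CHOP, had 34.1 and 32.9 against 64.0 and 48.1 (-0.72, adjusted p = 0.000922). In all 4 genes the parental groups did not overlap.

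DDIT3 (ENSG00000175197.10, chromosome 12, 57516588 to 57520517) was the exception, with 17.5 and 18.7 RPKM in MDA-MB-231 and 12.4 and 11.2 in Hs-578T (log2 difference 0.60, SE 0.149, adjusted p = 0.00308, limma). This call was lost with median-ratio scaling (0.37, adjusted p = 0.0522) and with quantile normalization (0.38, adjusted p = 0.0579). DDIT3 overlaps MARS by 982 bases on the opposite strand and MIR616 by 97 bases on its own, and how reads in overlaps were assigned is not stated, so part of its reads is uncertain. MARS, a methionine tRNA synthetase gene, had a log2 difference of -0.61 (adjusted p = 8.38e-05) between the same libraries, opposite in sign. None of the other 8 genes overlaps a listed gene.

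**Figure D1:**
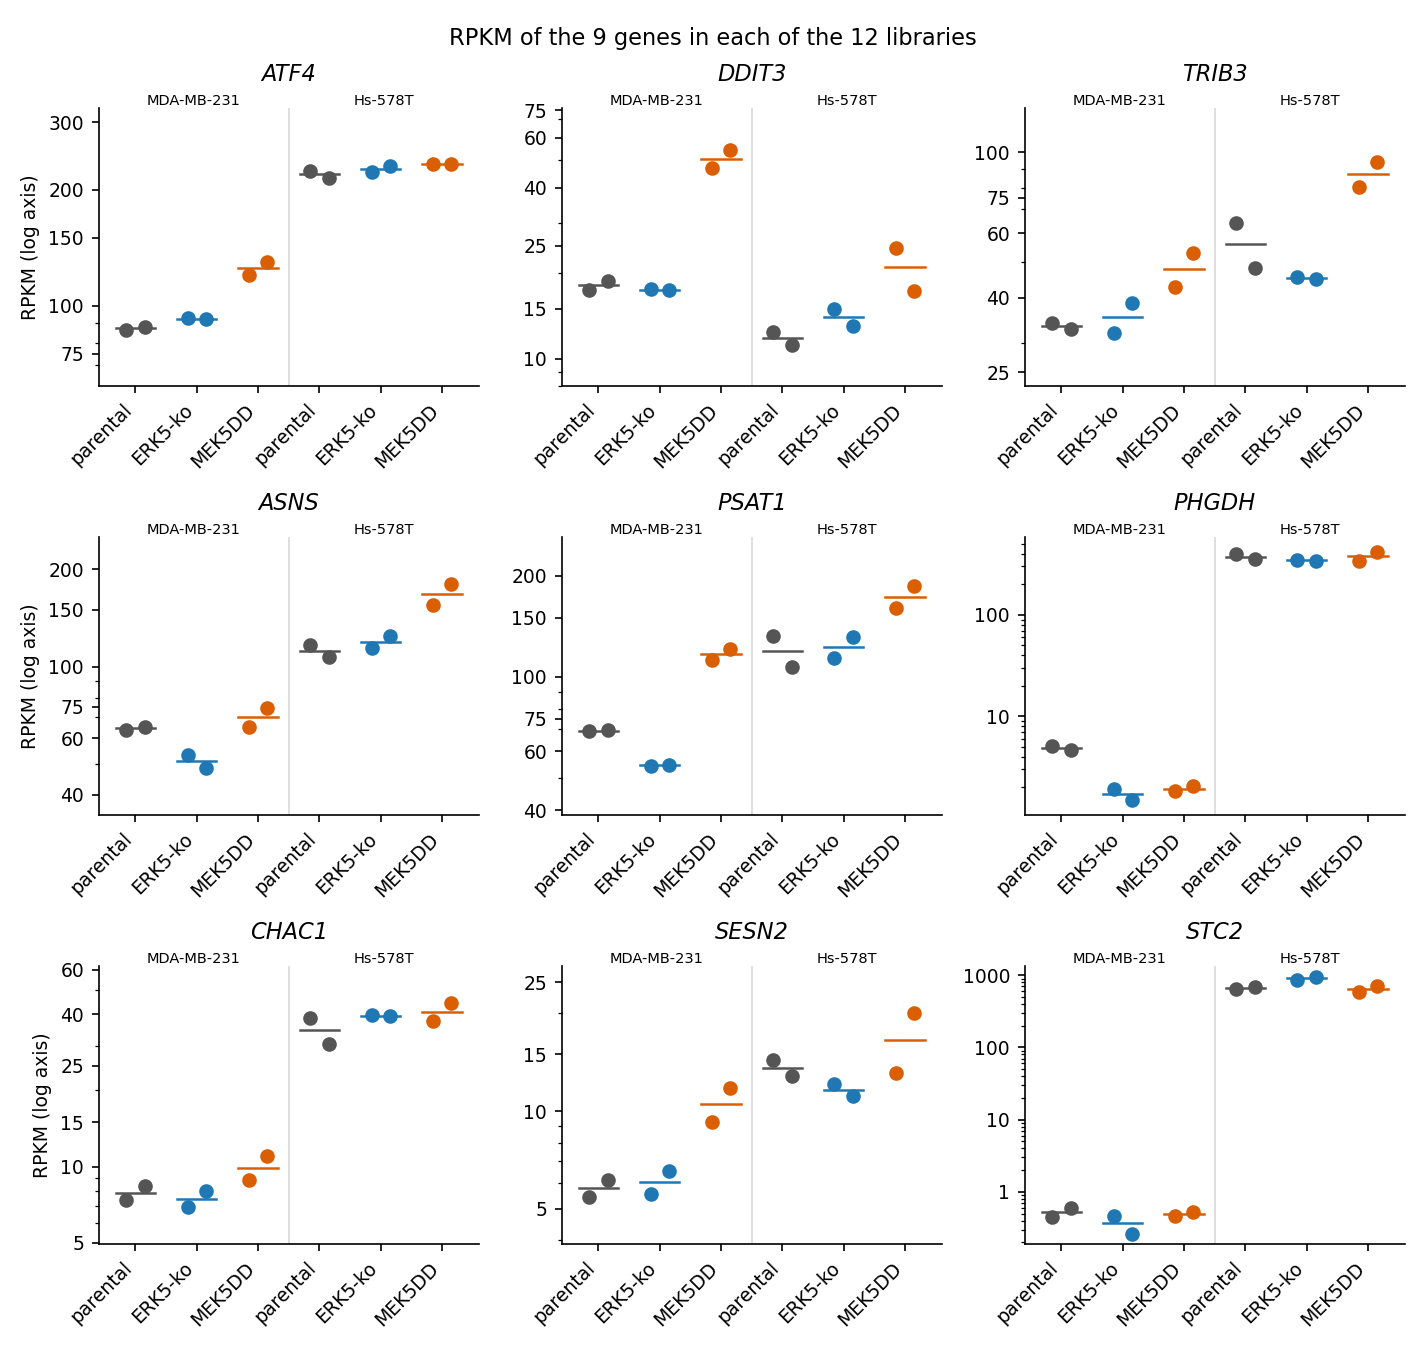
RPKM (log axis) of each of the 9 genes in each of the 12 libraries, by cell line and label, with a point for a library and a bar for the mean of 2. PHGDH and STC2 show the largest gap between lines, and DDIT3 stands highest in the MDA-MB-231 libraries labelled MEK5DD, at 46.8 and 54.5.

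In libraries labelled MEK5DD, 5 of the 9 genes exceeded parental controls in MDA-MB-231 and 4 did in Hs-578T. DDIT3, TRIB3 and PSAT1 were higher in both lines, 3 of the 5 and 3 of the 4, and 1.30% of all tested genes were higher in both. All 3 lost their Hs-578T call when the spread was taken from the Hs-578T libraries alone (DDIT3 adjusted p = 0.0688, TRIB3 0.0726, PSAT1 0.0925). ATF4 and SESN2 passed in MDA-MB-231 alone and ASNS in Hs-578T alone, and PHGDH was lower in MDA-MB-231. For comparison, 41.3% of all tested genes passed in MDA-MB-231 (17.5% as higher, 23.8% as lower) and 23.4% in Hs-578T (6.44% higher and 17.0% lower). The share of calls that were higher was 27.5% in Hs-578T, 44.2% with median-ratio scaling and 46.4% with quantile normalization. In MDA-MB-231 it was 42.5%, 47.5% with median-ratio scaling and 52.9% with quantile normalization. The median log2 fold change of the 9 genes was 0.50 (MDA-MB-231) and 0.25 (the other line), beside -0.01 and -0.08 over all tested genes. MEK5DD and parental libraries did not overlap in 7 of the 9 genes in MDA-MB-231 (80.1% of all tested genes) and in 5 in Hs-578T (49.9%). With the fold threshold added, 4 of the 9 passed in MDA-MB-231 (7.64% of tested genes higher and 6.31% lower) and 2 in Hs-578T (2.90% and 1.49%).

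DDIT3, the gene of the transcription factor CHOP, rose most. In MDA-MB-231 it went from 17.5 and 18.7 RPKM to 46.8 and 54.5, with no overlap (ratio of means 2.80, log2 fold change 1.46, SE 0.149, adjusted p = 1.30e-05, limma). In Hs-578T it went from 12.4 and 11.2 to 24.6 and 17.3, also without overlap but with a wide spread between the replicates (log2 fold change 0.78, adjusted p = 0.00349). MARS, which overlaps DDIT3, gave a log2 fold change of 0.42 in MDA-MB-231, with an adjusted p of 0.00353, and of 0.14 in Hs-578T, with 0.296, and its part in the reads on DDIT3 was not tested.

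PSAT1 rose from 68.8 and 69.2 RPKM to 112 and 121 in MDA-MB-231 (log2 fold change 0.75, SE 0.117, adjusted p = 0.000332, limma). In Hs-578T it rose from 132 and 107 to 160 and 186 (0.54, adjusted p = 0.00735). The groups did not overlap in either line, and the MDA-MB-231 MEK5DD level of 116 ± 6.28 (SD, n = 2) lay next to that of Hs-578T parental controls, 120 ± 17.8 (SD, n = 2). TRIB3 rose from 34.1 and 32.9 to 42.7 and 52.9 in MDA-MB-231 (0.50, adjusted p = 0.0196) and from 64.0 and 48.1 to 80.2 and 94.3 in Hs-578T (0.64, adjusted p = 0.0105).

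ATF4 itself rose in MDA-MB-231, from 86.4 and 87.9 RPKM to 120 and 130 (log2 fold change 0.51, SE 0.0787, adjusted p = 0.000294, limma). In Hs-578T it had 224 and 215 in parental controls and 233 in both MEK5DD libraries, a log2 fold change of 0.09 (95% interval -0.09 to 0.26, adjusted p = 0.472). SESN2 rose in MDA-MB-231 from 5.45 and 6.12 to 9.29 and 11.8 (0.80, SE 0.18, adjusted p = 0.00395). In Hs-578T its 13.1 and 20.0 overlapped the parental 14.4 and 12.8 (0.25, 95% interval -0.15 to 0.65, adjusted p = 0.353).

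ASNS showed the opposite distribution between the lines. It rose in Hs-578T from 117 and 107 RPKM to 155 and 180 (log2 fold change 0.58, SE 0.106, adjusted p = 0.00280, limma), and in MDA-MB-231 it had 63.4 and 65.2 against 65.2 and 74.4 (0.11, 95% interval -0.12 to 0.35, adjusted p = 0.427). PHGDH fell in MDA-MB-231, from 5.13 and 4.71 to 1.85 and 2.04, that is from 177 and 183 reads to 62 and 79 (ratio of means 0.395, log2 fold change -1.15, SE 0.124, adjusted p = 2.00e-05). It thereby moved against PSAT1 in the same libraries. In Hs-578T, PHGDH had 397 and 352 against 341 and 417 (0.01, 95% interval -0.26 to 0.28).

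CHAC1 and STC2 passed in neither line. CHAC1, whose MEK5DD libraries in MDA-MB-231 (8.82 and 11) lay above both parental ones, had a log2 fold change of 0.31 (95% interval -0.01 to 0.63, adjusted p = 0.114), and 0.25 in Hs-578T (adjusted p = 0.247). STC2 had -0.04 in MDA-MB-231 and, with 577 and 703 against 639 and 693 RPKM, -0.06 in Hs-578T (95% interval -0.36 to 0.23).

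Genes that mark cell state moved in the same libraries. In MDA-MB-231 with MEK5DD, VIM (vimentin, a mesenchymal filament protein) rose from 1610 and 1751 RPKM to 3418 and 3492 (log2 fold change 1.04, adjusted p = 4.01e-05) and CD44 rose from 862 and 914 to 1339 and 1276 (0.56, adjusted p = 0.000920). EPCAM, an epithelial adhesion molecule, fell there from 18.4 and 19.5 to 7.79 and 7.08 (-1.30, adjusted p = 2.24e-06). In Hs-578T, VIM had 0.09 (adjusted p = 0.632) and CD44 -0.28 (adjusted p = 0.0640), and EPCAM was near 0 RPKM. The part of these shifts in the values of the 9 genes was not tested.

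Single libraries decided some of these calls. In MDA-MB-231, TRIB3 was no longer called without parental replicate 1 (adjusted p = 0.0706), parental replicate 2 (0.0965) or MEK5DD replicate 2 (0.18), and SESN2 without MEK5DD replicate 2 (adjusted p = 0.0518). In Hs-578T, without parental replicate 2, TRIB3 (adjusted p = 0.0728) and PSAT1 (adjusted p = 0.0517) were no longer called, and SESN2 was called without MEK5DD replicate 1 (0.55, adjusted p = 0.0356).

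**Figure D2:**
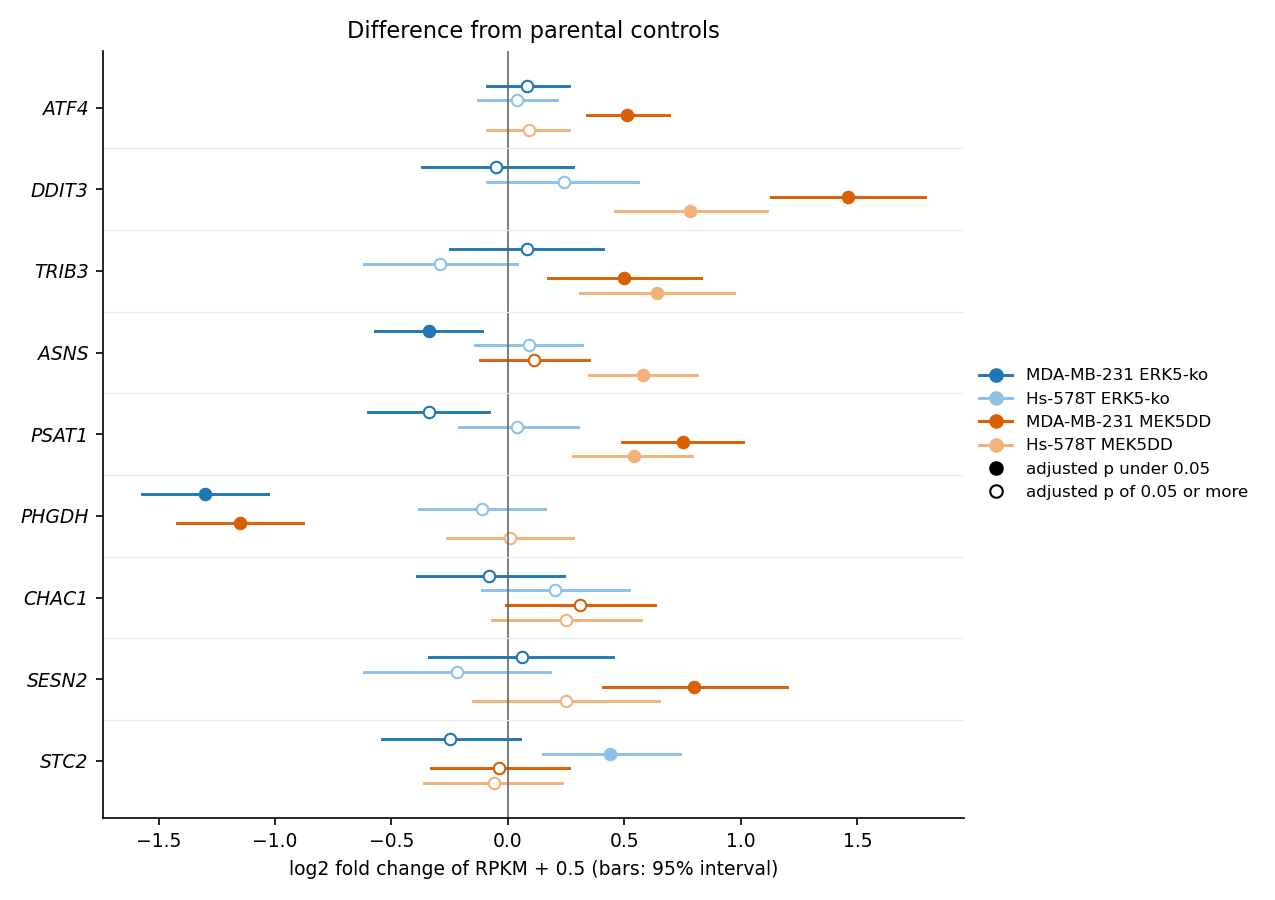
Log2 fold change of RPKM + 0.5 against parental controls for the 9 genes in 4 comparisons, with 95% intervals as bars and filled points at an adjusted p under 0.05 (limma). DDIT3, TRIB3 and PSAT1 lie right of 0 in both MEK5DD comparisons, and PHGDH lies at -1.30 and -1.15 in MDA-MB-231 and near 0 in Hs-578T.

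In libraries labelled ERK5-ko, 2 of the 9 genes differed from parental controls in MDA-MB-231 (17.3% of all tested genes) and 1 did in Hs-578T (39.4%). In MDA-MB-231, PHGDH and ASNS were lower and no gene higher, and in Hs-578T STC2 was higher and no gene lower. None of the 9 passed in the same direction in both lines, as 2.13% of all tested genes did. CD44 rose in Hs-578T (0.70, adjusted p = 0.000275) and EPCAM in MDA-MB-231 (0.39, adjusted p = 0.0265) with this label. Of all tested genes 17.3% passed in MDA-MB-231 (6.91% as higher, 10.4% as lower) and 39.4% in Hs-578T (19.7% each way). In MDA-MB-231 the share of calls that were higher was 39.9%, and 52.8% with median-ratio scaling. The median log2 fold change of the 9 genes was -0.08 and 0.04, beside -0.04 and 0.01 over all tested genes. Groups did not overlap in 4 of the 9 genes in MDA-MB-231 (65.6% of all tested genes) and in 6 in Hs-578T (69.8%), and with the fold threshold 1 passed in MDA-MB-231 (2.80% of tested genes higher, 1.07% lower) and 0 in Hs-578T (9.35% and 3.27%).

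PHGDH fell from 5.13 and 4.71 RPKM in MDA-MB-231 parental controls to 1.93 and 1.49, from 177 and 183 reads to 61 and 52 (ratio of means 0.348, log2 fold change -1.30, SE 0.124, adjusted p = 5.21e-05, limma). The fall held in every alternative, at log2 values from -1.53 to -1.13. In Hs-578T, PHGDH had 397 and 352 against 351 and 343 RPKM (-0.11, 95% interval -0.38 to 0.16, adjusted p = 0.515). The MDA-MB-231 level in libraries labelled ERK5-ko overlapped that in libraries labelled MEK5DD, so both engineered groups of this line, which share the parental controls, stood below them.

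ASNS had 63.4 and 65.2 RPKM in MDA-MB-231 parental controls against 53.1 and 48.5 with the ERK5-ko label (log2 fold change -0.34, SE 0.106, adjusted p = 0.0484, limma). Its call was lost in 10 of 15 alternatives, among them median-ratio scaling (-0.27, adjusted p = 0.0790) and each fit without 1 of its 4 libraries, which gave adjusted p values of 0.169 and 0.219 without parental replicates 1 and 2 and 0.0933 and 0.263 without ERK5-ko replicates 1 and 2. PSAT1 had 68.8 and 69.2 against 54.2 and 54.6 (-0.34, SE 0.117, adjusted p = 0.0686), and passed when the spread was taken from the MDA-MB-231 libraries alone (adjusted p = 0.00931). In Hs-578T, ASNS had a log2 fold change of 0.09 (adjusted p = 0.525) and PSAT1 of 0.04 (adjusted p = 0.802).

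STC2 rose in Hs-578T from 639 and 693 RPKM to 857 and 956 (ratio of means 1.36, log2 fold change 0.44, SE 0.135, adjusted p = 0.0225, limma). The call was lost with a pseudocount of 0.1 (adjusted p = 0.0874), with the spread of the Hs-578T libraries alone (0.0931), without parental replicate 1 (0.109) and without ERK5-ko replicate 2 (0.164). The MDA-MB-231 libraries labelled ERK5-ko held 16 and 10 reads of STC2 (log2 fold change -0.25, adjusted p = 0.244).

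With the ERK5-ko label ATF4 had 92.8 and 92.1 RPKM in MDA-MB-231 (log2 fold change 0.08, 95% interval -0.09 to 0.26) and 222 and 230 in those of Hs-578T (0.04, 95% interval -0.13 to 0.21). Of the remaining genes, DDIT3 had -0.05 and 0.24, TRIB3 0.08 and -0.29, CHAC1 -0.08 and 0.20, and SESN2 0.06 and -0.22 in MDA-MB-231 and Hs-578T. None of these passed (adjusted p from 0.151 to 0.892), although in Hs-578T TRIB3 passed without parental replicate 2 (-0.49, adjusted p = 0.0273), whose RPKM of 48.1 was far under the 64.0 of replicate 1.

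The libraries labelled ERK5-ko and MEK5DD were also set against each other, a comparison that uses no parental control. In MDA-MB-231, 7 of the 9 genes were lower in ERK5-ko than in MEK5DD, and in Hs-578T 5 were lower and STC2 was higher. Of all tested genes, 55.0% passed in MDA-MB-231 (27.9% lower, 27.1% higher) and 50.0% in Hs-578T (19.2% lower, 30.7% higher), where the share of calls that were higher was 61.5% and, with median-ratio scaling, 48.5%. The median over the 9 genes was -0.43 and -0.47, beside -0.02 and 0.09 over all tested genes. In each line 7 of the 9 genes did not overlap (81.2% and 71.7% of all tested genes). With the fold threshold 2 of the 9 passed in MDA-MB-231 (17.5% of tested genes higher, 6.12% lower) and 0 in Hs-578T (15.3% and 3.96%).

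DDIT3, with 17.6 and 17.4 against 46.8 and 54.5 RPKM in MDA-MB-231, had a log2 difference (ERK5-ko minus MEK5DD) of -1.50 (adjusted p = 6.04e-06, limma), and -0.55 (adjusted p = 0.0101) in Hs-578T. PSAT1 had -1.09 (adjusted p = 1.16e-05) and -0.50 (adjusted p = 0.00459). TRIB3 had -0.42 (adjusted p = 0.0318) and -0.93 (adjusted p = 0.000387), with 45.6 and 45.1 against 80.2 and 94.3 RPKM in Hs-578T. ASNS had -0.45 (adjusted p = 0.00337) and -0.49 (adjusted p = 0.00277), and its groups overlapped in neither line. These 4 genes, joined by SESN2 (-0.75 and -0.47, adjusted p = 0.00418 and 0.0489), were lower in ERK5-ko than in MEK5DD in both lines, as were 3.58% of all tested genes. The Hs-578T call of SESN2 was lost in 8 of 15 alternatives, among them a pseudocount of 0.1 (adjusted p = 0.0537), no filter (0.0833), all gene types (0.0617) and the spread of the Hs-578T libraries alone (0.137). With that last setting DDIT3 (0.0740) and PSAT1 (0.0514) were lost in Hs-578T too, and with no filter TRIB3 (0.0561) was lost in MDA-MB-231.

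ATF4 (-0.43, adjusted p = 0.000675) and CHAC1 (-0.38, adjusted p = 0.0422) were lower in MDA-MB-231 and had -0.05 in Hs-578T. The CHAC1 call was lost in 9 of 15 alternatives, among them median-ratio scaling (adjusted p = 0.0549), no filter (0.0665), all gene types (0.0519), the libraries of 1 line (0.0656) and limma voom (0.0539). STC2 was higher in ERK5-ko in Hs-578T (0.51, adjusted p = 0.00906, and 0.0519 from the libraries of that line alone), and PHGDH passed in neither line (-0.15 and -0.12). In this comparison the passage labels of Hs-578T were the same, 8 and 9, in both groups. The ERK5-ko lines are clones and how the MEK5DD lines were made is not given, so label and derivation cannot be told apart here. In MDA-MB-231, without MEK5DD replicate 2, TRIB3 (-0.27, adjusted p = 0.251), CHAC1 (-0.23, 0.304) and SESN2 (-0.58, 0.0515) were no longer called, and without ERK5-ko replicate 1 neither were TRIB3 (-0.29, 0.224) and CHAC1 (-0.29, 0.226), the last of which was also lost without ERK5-ko replicate 2 (-0.48, 0.0518). In Hs-578T, DDIT3 (-0.44, 0.0933), SESN2 (-0.41, 0.209) and STC2 (0.43, 0.0835) were lost without ERK5-ko replicate 2, PSAT1 (-0.39, 0.0502) and SESN2 (-0.53, 0.102) without ERK5-ko replicate 1, DDIT3 (-0.30, 0.0791) and STC2 (0.37, 0.0712) without MEK5DD replicate 1, and SESN2 (-0.17, 0.377) without MEK5DD replicate 2.

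Whether the lines responded differently was tested as a difference of differences. For MEK5DD against parental, 4 of the 9 genes differed between the lines, 2 with the higher and 2 with the lower value in MDA-MB-231, beside 39.6% of all tested genes (21.3% higher, 18.2% lower). With the fold threshold 2 did (15.3% and 6.89% of tested genes). ATF4 changed by 0.43 more on the log2 scale in MDA-MB-231 than in Hs-578T (SE 0.111, adjusted p = 0.0104, limma) and DDIT3 by 0.67 more (SE 0.210, adjusted p = 0.0250). ASNS had a difference of -0.46 (adjusted p = 0.0284) and PHGDH of -1.16 (adjusted p = 0.000361), both lower in MDA-MB-231. PSAT1 (0.21, 95% interval -0.15 to 0.57) and TRIB3 (-0.14, 95% interval -0.61 to 0.32) did not pass, and neither did SESN2 (0.55, 95% interval -0.01 to 1.11, adjusted p = 0.108), so a response of SESN2 in MDA-MB-231 alone was not shown. The rise of MAP2K5 RNA differed between the lines as well (3.26, adjusted p = 4.84e-08), and its part in these differences was not tested.

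For ERK5-ko against parental, 3 of the 9 genes differed between the lines, all lower in MDA-MB-231, beside 39.8% of all tested genes (18.3% higher, 21.5% lower). With the fold threshold 1 did (13.3% and 7.31% of tested genes). PHGDH had a difference of -1.19 (SE 0.175, adjusted p = 0.000345, limma), STC2 of -0.69 (adjusted p = 0.0144) and ASNS of -0.43 (adjusted p = 0.0400). The value of STC2 rests on a level in MDA-MB-231 of 10 to 25 reads a library, and it was lost with limma voom on the recovered reads (-1.0, adjusted p = 0.0816) and with quantile normalization (-0.64, adjusted p = 0.0555). The call of ASNS was lost with no filter (adjusted p = 0.0504) and with median-ratio scaling (-0.33, adjusted p = 0.0731). Each call between the lines other than those of PHGDH was lost without 1 of some libraries. Those of ASNS gave adjusted p values from 0.0884 to 0.140 (ERK5-ko) without MDA-MB-231 parental replicate 1 or 2 or ERK5-ko replicate 2, or without Hs-578T parental replicate 2 or ERK5-ko replicate 2, and from 0.0615 to 0.125 (MEK5DD) without MDA-MB-231 parental replicate 1 or 2 or MEK5DD replicate 1, or without Hs-578T parental replicate 2 or MEK5DD replicate 2. That of STC2 was lost without MDA-MB-231 parental replicate 2 (0.0620) or ERK5-ko replicate 2 (0.0636) or Hs-578T ERK5-ko replicate 2 (0.0685), and that of ATF4 without MDA-MB-231 MEK5DD replicate 2 (0.0593). That of DDIT3 was lost without MDA-MB-231 parental replicate 1 (0.0840) or 2 (0.0509) or MEK5DD replicate 2 (0.105), and without Hs-578T parental replicate 1 (0.0655) or MEK5DD replicate 2 (0.0528). TRIB3, PSAT1 and SESN2 passed only when a library was left out, TRIB3 (0.57, adjusted p = 0.0400) and PSAT1 (-0.53, 0.0241) for ERK5-ko without Hs-578T parental replicate 2 and 1, and SESN2 (0.85, 0.00691) for MEK5DD without Hs-578T MEK5DD replicate 2.

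**Figure D3:**
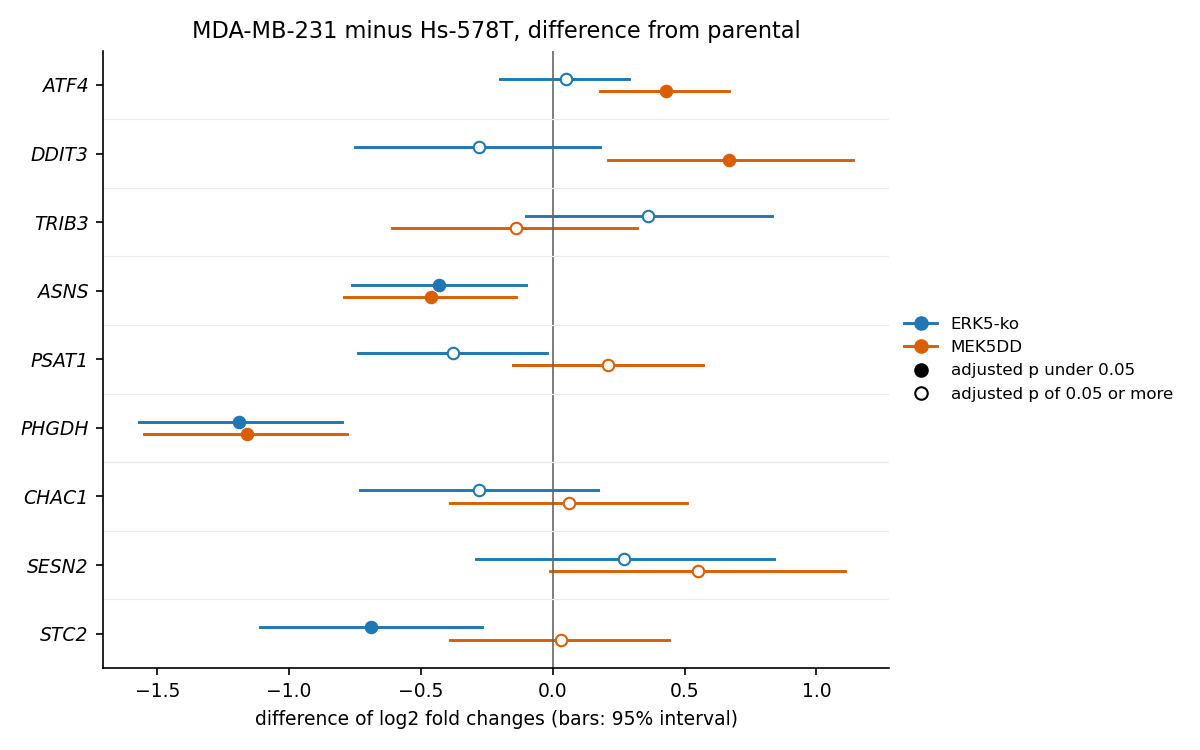
Difference between MDA-MB-231 and Hs-578T in the log2 fold change against parental controls of the 9 genes, for libraries labelled ERK5-ko and MEK5DD, with 95% intervals as bars and filled points at an adjusted p under 0.05 (limma). PHGDH lies at -1.19 and -1.16, and DDIT3 lies to the right for MEK5DD, at 0.67.

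The genes around ATF4 were counted in the same 4 comparisons with parental controls, to be read beside the shares of all tested genes given above. In MDA-MB-231 libraries labelled MEK5DD, 7 of 14 enzymes of serine, proline and one-carbon metabolism were higher and 0 lower, as were 9 of 18 cytosolic aminoacyl-tRNA synthetases with 1 lower, and 4 of 10 amino acid transporters with 0 lower. Their median log2 fold changes were 0.27, 0.29 and 0.23, beside -0.01 over all tested genes. The 14 enzymes do not include PHGDH and PSAT1, which were counted among the 9 genes. In these libraries PHGDH was lower (-1.15) and PSAT1 higher (0.75). In Hs-578T libraries labelled MEK5DD the counts were 3 higher and 0 lower of the 14 enzymes, 2 and 2 of the 18 synthetases, and 0 and 0 of the 10 transporters, with medians of 0.07, 0.01 and 0.00 beside -0.08.

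Among the transporters, SLC7A11, the cystine carrier, rose with MEK5DD in MDA-MB-231 (log2 fold change 1.07, adjusted p = 0.000622) and had -0.04 in the Hs-578T libraries (adjusted p = 0.917). Of the synthetases, WARS, which charges tryptophan tRNA, went from 118 and 126 RPKM to 262 and 292 in MDA-MB-231 (1.18, adjusted p = 1.47e-05). The serine pathway genes PSPH (0.36 and 0.31, adjusted p = 0.00624 and 0.0250) and SHMT2 (0.58 and 0.31, adjusted p = 0.000705 and 0.0468) and the transsulfuration enzyme CTH (0.76 and 0.68, adjusted p = 0.000340 and 0.00231) were higher with MEK5DD in both lines. CBS, the enzyme before CTH in transsulfuration, is listed at 0 in all MDA-MB-231 libraries, and since a near-identical copy of it is listed as well, its values are uncertain.

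Other genes reported as targets of ATF4 or CHOP moved in both directions with MEK5DD. Of 23, 6 passed as higher and 10 as lower in MDA-MB-231, with 2 and 3 in Hs-578T. In MDA-MB-231, SESN3, a relative of SESN2, went from 4.76 and 5.19 to 14.9 and 14.0 RPKM (log2 fold change 1.45, adjusted p = 3.95e-05), while in Hs-578T it fell from 15.4 and 20.1 to 9.42 and 12.6 (-0.67, adjusted p = 0.0163). VEGFA, an angiogenic factor, fell in MDA-MB-231 from 124 and 126 to 40.8 and 50.5 (-1.45, adjusted p = 4.94e-07), and GDF15, a secreted stress cytokine, from 9.76 and 9.20 to 2.48 and 3.98 (-1.45, adjusted p = 0.000189). JDP2, a bZIP repressor, fell from 5.24 and 4.92 to 2.40 and 2.57 (-0.90, adjusted p = 0.000162). In Hs-578T, DDIT4, which inhibits mTORC1, rose from 149 and 128 to 223 and 250 (0.78, adjusted p = 0.000621), whereas ERO1L, an oxidase of the endoplasmic reticulum, fell from 45.8 and 46.3 to 30.3 and 33.7 (-0.52, adjusted p = 0.00153). In MDA-MB-231 ERO1L was lower too (-0.55, adjusted p = 0.000353), and DDIT4 was lower (-0.42, adjusted p = 0.00960), opposite to Hs-578T.

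Upstream of ATF4, 2 of 8 genes of eIF2α kinases, eIF2α and its phosphatases passed as higher and 2 as lower in MDA-MB-231 libraries labelled MEK5DD, and 0 passed in Hs-578T. PPP1R15A, the stress-induced subunit that directs dephosphorylation of eIF2α and itself an ATF4 and CHOP target, rose in MDA-MB-231 from 44.2 and 44.6 RPKM to 105 and 111 (log2 fold change 1.27, adjusted p = 1.12e-05). EIF2AK4, the gene of GCN2, had 0.25 (adjusted p = 0.172) and 0.01 (adjusted p = 0.978). Of 8 ATF4 partners and related factors, 2 passed as higher and 2 as lower in MDA-MB-231 and 1 and 1 in Hs-578T, where CEBPD fell from 14.1 and 18.0 to 10.1 and 10.2 (-0.62, adjusted p = 0.00760). CEBPD was lower in MDA-MB-231 as well (-0.71, adjusted p = 0.00145). CEBPG, a partner of ATF4, was higher in both lines (0.60 and 0.39, adjusted p = 0.00132 and 0.0296).

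With the ERK5-ko label, 0 of the 14 enzymes passed as higher and 2 as lower in MDA-MB-231, and 3 and 3 in Hs-578T. Of the 18 synthetases 0 passed as higher and 2 as lower in MDA-MB-231 and 3 and 2 in Hs-578T, and of the 10 transporters 2 were higher and 0 lower in each line. WARS, which had risen with MEK5DD in MDA-MB-231, fell with the ERK5-ko label by 0.52 on the log2 scale there (adjusted p = 0.0132) and by 0.58 in Hs-578T (adjusted p = 0.00307). Of the genes in these lists that were higher with MEK5DD in both lines, CEBPG (0.43, adjusted p = 0.0111), SHMT2 (0.43, adjusted p = 0.00641) and CTH (0.43, adjusted p = 0.0138) were also higher in Hs-578T with the ERK5-ko label. PSPH was lower there (-0.59, adjusted p = 0.000365). In MDA-MB-231 none of these 4 passed with that label (adjusted p from 0.235 to 0.571). The others were XPOT (0.37 and 0.51 with MEK5DD, adjusted p = 0.0181 and 0.00727) and SARS (0.26 and 0.49, adjusted p = 0.0214 and 0.00139). Neither passed with the ERK5-ko label in either line (adjusted p from 0.158 to 0.698). SLC7A11 rose in Hs-578T from 17.7 and 25.5 RPKM to 33.5 and 37.3 (log2 fold change 0.72, adjusted p = 0.00893). Of the 8 upstream genes 0 were higher and 1 lower in each line. The 23 other targets gave 4 that passed as higher and 4 as lower in MDA-MB-231, with GDF15 at 9.76 and 9.20 against 13.3 and 20.0 (0.75, adjusted p = 0.0291) and STC1, the relative of STC2, at 34.0 and 36.2 against 21.3 and 21.7 (-0.70, adjusted p = 0.000379). In Hs-578T they gave 5 higher and 7 lower, with SESN3 at 15.4 and 20.1 against 11.7 and 9.78 (-0.70, adjusted p = 0.00756) and JDP2 at 19.0 and 18.3 against 12.5 and 11.3 (-0.63, adjusted p = 0.00252). GADD45A was higher in both lines (0.43 and 0.45, adjusted p = 0.0203 and 0.00777). TRIB2 (-0.51 and -0.43, adjusted p = 0.00156 and 0.00155) and MAP1LC3B (-0.27 and -0.50, adjusted p = 0.0317 and 0.000365) were lower in both. SESN3 was higher in MDA-MB-231 (0.66, adjusted p = 0.0215) and STC1 higher in Hs-578T (0.36, adjusted p = 0.00815), each opposite to the other line.

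The ATF4 partners and the chaperones of the endoplasmic reticulum, which are driven mainly by the IRE1 and ATF6 arms of the unfolded protein response, gave different counts in the lines with the ERK5-ko label. Of the 8 partners and related factors 4 passed as higher and 0 as lower in MDA-MB-231, with JUND at 84.8 and 78.2 against 131 and 135 RPKM (log2 fold change 0.71, adjusted p = 0.00259). BATF3 had 4.29 and 4.80 against 7.63 and 8.40 (0.76, adjusted p = 0.00232). In Hs-578T 3 were higher and 4 lower, and BATF3 fell from 2.27 and 2.13 to 0.871 and 1.16 (-0.84, adjusted p = 0.000416). ATF3 was higher in both lines (0.44 and 0.67, adjusted p = 0.0140 and 0.000477). JUND was lower in Hs-578T (-0.41, adjusted p = 0.0197). So was NUPR1 (-0.35, adjusted p = 0.0224), which was higher in MDA-MB-231 (0.54, adjusted p = 0.00531). Of 20 chaperone and unfolded protein response genes, 0 passed as higher and 4 as lower in MDA-MB-231, where DNAJB11 fell from 47.1 and 42.8 to 29.8 and 28.6 (-0.61, adjusted p = 0.00875) and EDEM1 from 92.9 and 82.7 to 61.9 and 56.6 (-0.56, adjusted p = 0.00938). In Hs-578T 8 were higher and 0 lower, with HYOU1 at 183 and 221 against 347 and 396 (0.88, adjusted p = 0.000963) and SDF2L1 at 32.2 and 31.8 against 52.6 and 51.3 (0.69, adjusted p = 0.00290). With MEK5DD 6 passed as higher and 5 as lower in MDA-MB-231, and 1 as higher, DNAJB9 (0.51, adjusted p = 0.0112), and 5 as lower in Hs-578T.

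**Figure D4:**
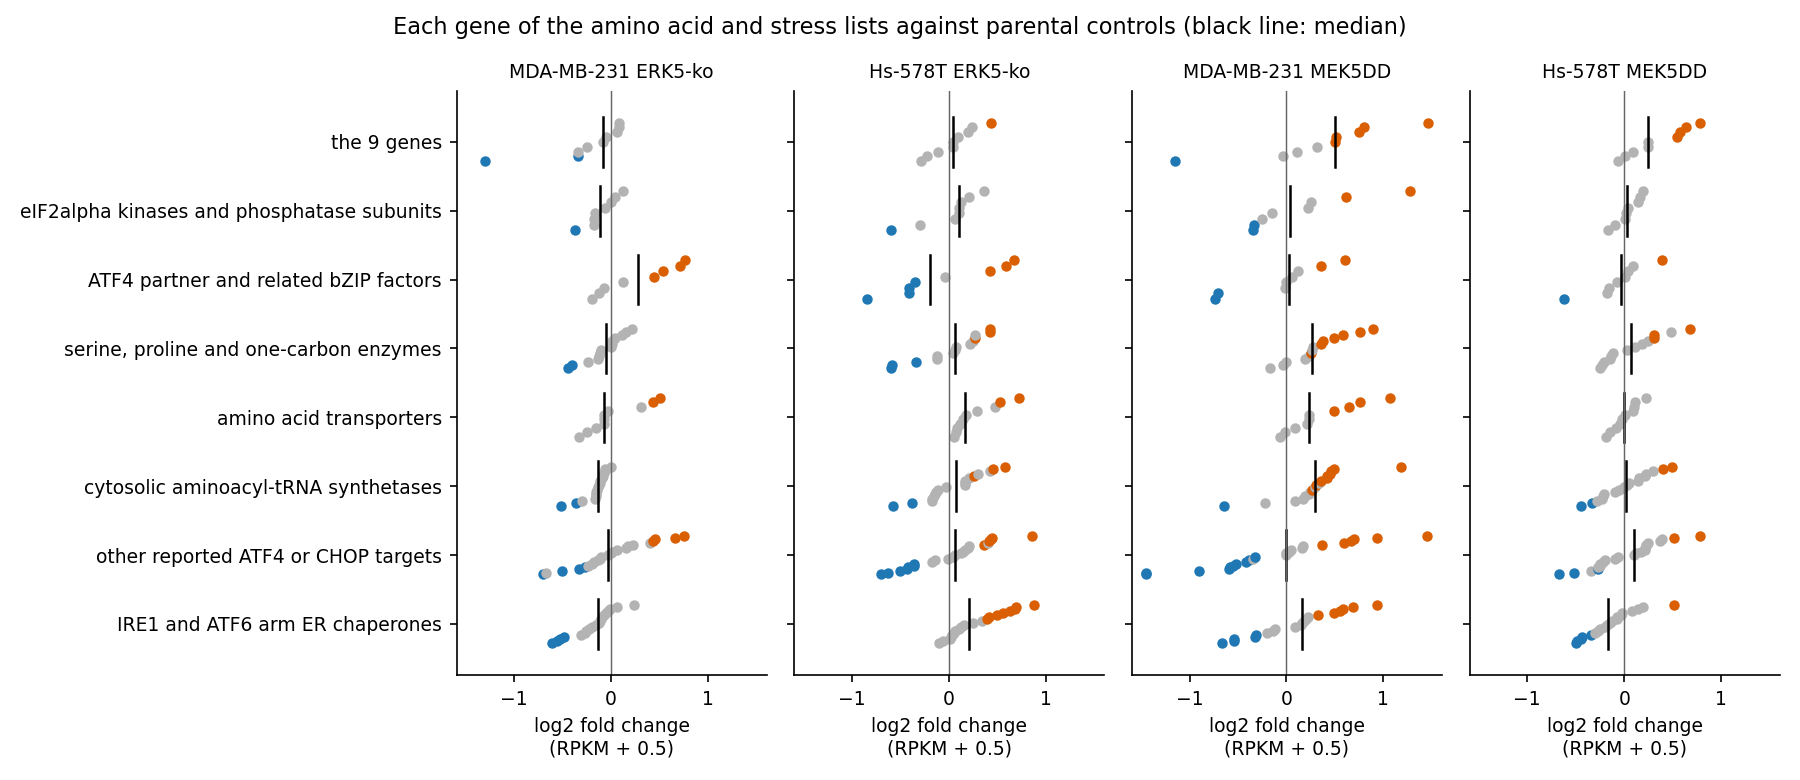
Log2 fold change of RPKM + 0.5 against parental controls for each gene of the lists (1 point a gene), in 4 comparisons. Orange points passed as higher and blue as lower at an adjusted p under 0.05, grey points did not pass, and black lines are medians, which in MDA-MB-231 libraries labelled MEK5DD were 0.50 for the 9 genes and 0.29 for the aminoacyl-tRNA synthetases.

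To describe how far the 9 genes moved together within a line, the level of each was centred on its cell line on the log2 scale, divided by its SD over the 12 libraries and averaged. This mean profile was highest in the 4 libraries labelled MEK5DD, at 0.65 and 1.33 SD in MDA-MB-231 and 0.24 and 0.92 in Hs-578T. It was lowest in the ERK5-ko libraries of MDA-MB-231, at -0.80 and -0.85, with the parental controls at -0.30 and -0.03. Against these controls ATF4, DDIT3, TRIB3, CHAC1 and SESN2 had log2 fold changes of only 0.08, -0.05, 0.08, -0.08 and 0.06. The mean of a line includes its MEK5DD libraries, and PHGDH and STC2 weigh as much as the other genes. Parental controls of Hs-578T lay at -0.15 and -0.72 and its ERK5-ko libraries at -0.21 and -0.09, so these groups overlapped. Over the 12 libraries, PSAT1 had a Pearson r of 0.97 with it, CHAC1 0.88, ASNS 0.87, SESN2 0.86, DDIT3 0.85, ATF4 0.80 and TRIB3 0.74, each of which is part of the mean itself. STC2 (0.16) and PHGDH (0.03) did not follow it. The libraries share controls and cell lines, so these values are descriptions.

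The 5 genes outside the set with the most similar profile over the 12 libraries were GRK5 (r = 0.929), a G protein-coupled receptor kinase, GEM (0.928), a small GTPase, CPED1 (0.923), SPHK1 (0.923), sphingosine kinase 1, and PLEKHO2 (0.92). GEM had 17.6 and 16.7 RPKM in MDA-MB-231 parental controls, 11.3 and 12.6 with the ERK5-ko label and 29.8 in both labelled MEK5DD. In Hs-578T it had 18.1 and 17.9, 23.5 and 22.2, and 27.6 and 30.1.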

How the data were processed

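RNA was sequenced from 12 libraries of the lines MDA-MB-231 and Hs-578T, 2 for each of 6 groups by cell line and label. The deposited values are RPKM, in which the authors scaled the reads of a gene to its length and to the reads of the library, for 32152 genes on GRCh38. Their processing notes name bcl2fastq, Trimmomatic 0.32, TopHat2 2.1.1, R 3.3.1 and DESeq2 1.12.4. The counting tool, the annotation and the handling of strand and overlaps are not given in the sources used here, although the kit was stranded. All 12 columns matched a sample, and no column was left out.

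The 9 genes and the gene lists around them were chosen with earlier results of these data known. The RPKM values gave back whole reads for 100.0% of genes, within 0.0001 of a read, and served for the depths and for 1 alternative test. The 13737 protein-coding genes that reached 0.5 RPKM in 2 or more libraries were fitted as log2(RPKM + 0.5) with limma 3.58.1 in R 4.3.3. The fit had 6 group means and 6 residual degrees of freedom, with the prior variance following mean expression, and Benjamini-Hochberg adjustment was done per comparison. Intervals of 95% come from the same fit. The fit was tested on simulated data. No pair of libraries was identical, and replicates differed beyond counting noise (chi-square per degree of freedom 2.67 to 38.8).

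Replicate numbers follow consecutive passages. Same-numbered libraries of a line deviated together across genes, with a correlation of 0.107 to 0.541 over the 6 pairs of groups, so a fit with the replicate number as a block was run. The other alternatives changed the pseudocount, filter, gene types, scaling, libraries in the fit, fold threshold and test, or left out 1 library at a time.

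Besides the 9 genes, the text names MAPK7 and MAP2K5, the cell type markers, the 5 genes most like the mean profile, and up to 3 highest and 3 lowest list genes per comparison with parental controls that passed, had a mean RPKM of at least 1 and did not overlap between groups. List genes named outside that rule, or for a comparison outside it, were chosen after their values were seen. Among them are SLC7A11, WARS, PSPH, SHMT2, CTH, CBS, CEBPG, XPOT, SARS, EIF2AK4, EIF2S1, ATF3 and GADD45A. MARS was chosen for its overlap with DDIT3. Promoters came from a RefSeq table of GRCh38.p14. Python 3.11.15 with pandas 2.3.3, numpy 2.4.6 and matplotlib 3.10.9 served for the rest.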

Additional observations from a re-analysis of the deposited data

Results flagged for a closer look

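A test of the difference between the cell lines set apart 7 results. For libraries labelled MEK5DD against parental controls, the log2 fold change in MDA-MB-231 minus that in Hs-578T was 0.43 for ATF4, 0.67 for DDIT3, -0.46 for ASNS and -1.16 for PHGDH (adjusted p from 0.000361 to 0.0284, limma). For libraries labelled ERK5-ko it was -0.43 for ASNS, -1.19 for PHGDH and -0.69 for STC2 (adjusted p from 0.000345 to 0.0400, limma). Both PHGDH values passed in every alternative run, and each of the other 5 was lost without at least 1 library.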

How the results depend on the processing

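Of 81 values (9 genes in 9 comparisons), 42 passed. Over 651 alternative values of these, 553 kept the direction and the call, 98 lost the call and 0 turned direction. In all alternatives 13 of the 42 kept the call, and in all but the fold threshold 22 did. Another 7 values passed in at least 1 alternative. In a paired fit (replicate block), the counts of genes passing were 2, 1, 6, 4, 7, 6, 9, 3 and 4 in the order of the values below, and the block changed 0 calls.

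The genes passing in MDA-MB-231 ERK5-ko against parental numbered 2, and 1 with a pseudocount of 0.1, no filter, all gene types, median-ratio scaling, quantile normalization, the fold threshold (above 1.5 or below 0.5), and 1 to 1 without 1 library. In Hs-578T there was 1, and 0 with a pseudocount of 0.1, the libraries of 1 cell line and the fold threshold, and 0 to 2 without 1 library. With MEK5DD there were 6 in MDA-MB-231, 7 with quantile normalization, 4 with the fold threshold and 4 to 6 without 1 library. In Hs-578T there were 4, with 1 from the libraries of 1 cell line, 2 with the fold threshold and 2 to 5 without 1 library. In ERK5-ko against MEK5DD there were 7 in MDA-MB-231, 5 with no filter, 6 with all gene types, median-ratio scaling, the libraries of 1 cell line or limma voom, 2 with the fold threshold and 4 to 7 without 1 library. In Hs-578T there were 6, with 5 at a pseudocount of 0.1, no filter or all gene types, 2 from the libraries of 1 cell line, 0 with the fold threshold and 3 to 5 without 1 library. Between parental lines all 9 passed, and 6 did with the fold threshold. The call of DDIT3 there was lost with median-ratio scaling (0.37, adjusted p = 0.0522) and quantile normalization (0.38, adjusted p = 0.0579). The direction of all 9 held in each fit without 1 library. Between the lines 3 differed for ERK5-ko (2 with no filter, median-ratio scaling, quantile normalization or limma voom, 1 with the fold threshold, 1 to 4 without 1 library) and 4 for MEK5DD (2 with the fold threshold, 2 to 4 without 1 library). Calls over all tested genes changed with these settings as well, and the shares with the fold threshold are given above. From the libraries of 1 cell line, Hs-578T MEK5DD gave 1.94% higher and 4.61% lower, beside 6.44% and 17.0% in the main fit. In MDA-MB-231 the same setting gave 24.3% and 28.6% for MEK5DD, beside 17.5% and 23.8%. Without a filter, MDA-MB-231 ERK5-ko gave 5.08% and 7.51%, beside 6.91% and 10.4%. The fold threshold by its construction removes small changes, and the cause of the other changes was not tested.

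Directions turned only in values that had not passed. With median-ratio scaling, DDIT3 had 0.02 in MDA-MB-231 ERK5-ko, STC2 0.03 in Hs-578T MEK5DD and STC2 -0.05 in the MEK5DD difference between lines. With quantile normalization, DDIT3 had 0.03 in MDA-MB-231 ERK5-ko and STC2 0.09 in MDA-MB-231 MEK5DD, and with limma voom STC2 had -0.01 in the MEK5DD difference. Without 1 library, MDA-MB-231 ERK5-ko gave -0.06 to 0.21 for TRIB3, -0.17 to 0.02 for CHAC1 and -0.05 to 0.16 for SESN2, and Hs-578T ERK5-ko gave -0.11 to 0.19 for PSAT1. STC2 ranged from -0.14 to 0.06 in MDA-MB-231 MEK5DD and from -0.21 to 0.08 in Hs-578T MEK5DD, where PHGDH ranged from -0.13 to 0.16 and SESN2 from -0.05 to 0.55. In Hs-578T ERK5-ko against MEK5DD, PHGDH ranged from -0.27 to 0.02 and CHAC1 from -0.16 to 0.07. In the MEK5DD difference between lines, TRIB3 ranged from -0.35 to 0.06, CHAC1 from -0.11 to 0.23 and STC2 from -0.12 to 0.17. Depth limits STC2 in MDA-MB-231, at 10 to 25 reads a library.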
